A study of Homo sapiens with 5 samples.

Results

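The SERPINB cluster of chromosome 18 holds 10 protein-coding genes, SERPINB5 (maspin), SERPINB12, SERPINB13, SERPINB4, SERPINB11, SERPINB3, SERPINB7, SERPINB2, SERPINB10 and SERPINB8, in that order. The 10 genes were taken by name out of the 20033 protein-coding genes of GENCODE release 44, and every hotspot between the start of SERPINB5 and the end of SERPINB8 was taken with them (hg38 chr18:63476958-64019779, 543 kb). This interval held 38 of the 181723 hotspots in the list. The list comes from ATAC-seq of MCF10A cells, an immortalized mammary epithelial line, in which the Tn5 transposase inserts sequencing adapters into accessible DNA. The cells were labelled as healthy, below passage 30 and at baseline, and grew with 5% horse serum, 20 ng/ml EGF, 0.5 µg/ml hydrocortisone, 100 ng/ml cholera toxin and 10 µg/ml insulin. Reads of 5 replicate libraries were pooled before hotspots, the regions of local read enrichment, were called. Each hotspot therefore has 1 position, 1 width and 1 score, with no replicate error, no untreated or second condition to set it against and no test. The sequencing depth is unknown. Of 10 basal mammary marker genes, 8 had a promoter hotspot, meaning one within 1000 bp of a transcription start site (TSS), with scores of 17.97 to 35.3, and KRT14 and TP63 had none. Of 7 markers of other cell types, 3 had one, ALB, CDH5 and PECAM1, with scores of 5.10 to 8.67. Of all coding genes 77.2% had one, so the share of basal markers was near that of any genes.

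Serpins are protease inhibitors that trap their target by a large change of shape after the protease has cut an exposed loop. The clade B serpins lack a classical signal peptide and act mostly inside cells or on their release, and the genes of this cluster arose by duplication. Several of them are known from stratified epithelia such as the epidermis. Maspin is a clade B serpin without a known protease target that it traps in this way, and it is known as a suppressor of invasion made by normal mammary epithelial and myoepithelial cells.

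Across the cluster, accessible chromatin stood at the promoters of both outer genes and at scattered sites between them. The highest score of the interval lay at the SERPINB8 promoter, at 52.2, and the next at the SERPINB5 promoter, at 25.9. A promoter hotspot, counted for any annotated TSS, was found for 5 of the 10 members, SERPINB8, SERPINB5, SERPINB13, SERPINB7 and SERPINB2, and for none of SERPINB3, SERPINB4, SERPINB10, SERPINB11 and SERPINB12. Of all 20033 protein-coding genes, 77.2% had such a hotspot. The 5 promoter scores of the members ran from 4.48 at SERPINB2 to 52.2 at SERPINB8, beside all scores of the list, which have a lower quartile of 4.86, a median of 5.81 and an upper quartile of 8.62.

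**Figure D1:**
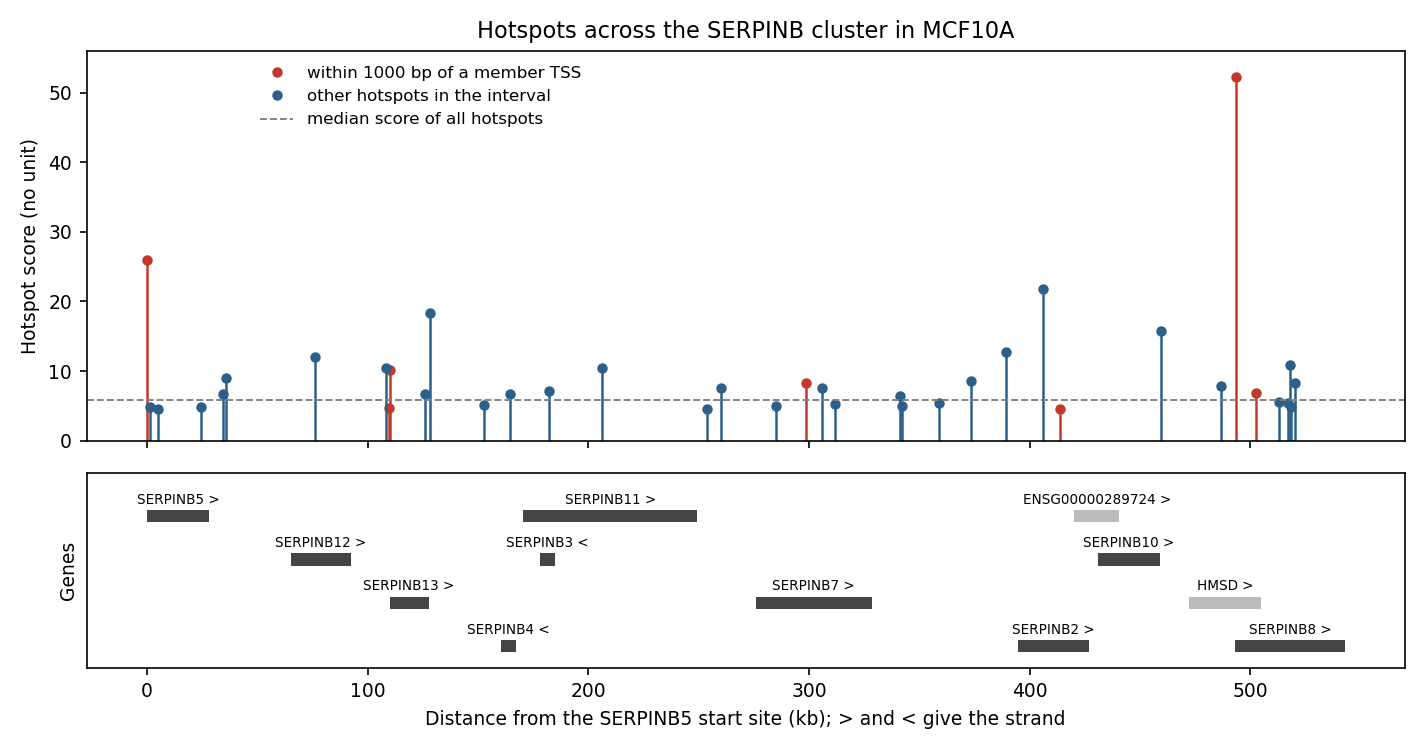
Score of each of the 38 hotspots (vertical axis, no unit) against the distance of its midpoint from the SERPINB5 start site in kb, with hotspots within 1000 bp of a member TSS in red, the others in blue, and gene bodies drawn below to scale (grey bars: genes that are not members). The red points at both ends of the cluster, 25.9 at SERPINB5 and 52.2 at SERPINB8, are the highest, and a blue point of 21.8 stands before the main start of SERPINB2.

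SERPINB5, maspin, had 1 promoter hotspot, at chr18:63476590-63477128. It was 539 bp wide, wider than or as wide as 82.9% of all hotspots. Its score was 25.9, and 95.6% of all hotspots scored at or below it. Among genes with a promoter hotspot, whose highest promoter scores had a median of 20.4 and quartiles of 10.7 and 30.7, maspin stood in the middle range, with 64.2% of them at or below its score. The hotspot covered the main TSS of the gene, on the plus strand at position 63476958. The gene body held further hotspots in its introns, with scores of 4.86, 4.48 and 4.86, all below the median of the list. Before the gene, outside the interval, lay hotspots centred 6.12 kb and 4.44 kb from the start, with scores of 19.9 and 8.002. Of the hotspots named here, the one at the start of maspin had the highest score. Whether those before the gene belong to maspin was not tested.

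The maspin promoter is shown because the hotspot covered all 300 bases of it, from 250 bases before the TSS to 50 after (RefSeq, GRCh38.p14, chr18:63476708-63477007, plus strand), with matches to the motifs searched in capitals. The capitals are a pair of overlapping SP motifs (CCCGCCC, on the other strand), which start 77 and 72 bases before the TSS. The whole hotspot also held an ETS motif (AGGAAGT, on the other strand) at chr18:63477075-63477081, outside the part shown. The stretch held 16 CpG dinucleotides, against a median of 14 over the 35116 promoters of the same table. An SP motif was in 33.1% of these promoters.
SERPINB5: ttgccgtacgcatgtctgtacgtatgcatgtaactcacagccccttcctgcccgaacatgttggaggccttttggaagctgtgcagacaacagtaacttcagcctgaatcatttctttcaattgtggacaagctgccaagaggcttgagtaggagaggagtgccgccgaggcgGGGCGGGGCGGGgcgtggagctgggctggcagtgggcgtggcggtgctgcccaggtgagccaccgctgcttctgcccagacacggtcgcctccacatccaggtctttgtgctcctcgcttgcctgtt

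SERPINB8, an inhibitor of the proprotein convertase furin, had the highest promoter score of the cluster. Its hotspot at chr18:63969860-63971205 was 1346 bp wide and had a score of 52.2, and 99.5% of all hotspots scored at or below it. Among genes with a promoter hotspot, 98.5% had a highest promoter score at or below that of SERPINB8. The hotspot covered the starts of 7 annotated SERPINB8 transcripts and also the start of a long noncoding RNA on the minus strand, ENSG00000283667, at position 63970181, and a hotspot list cannot say which of the genes it belongs to. A separate start of SERPINB8, at 63979808, had a hotspot of its own with a score of 6.90 (chr18:63979446-63979679). The last 5 hotspots of the cluster lay in the introns of SERPINB8, with scores of 5.56, 5.34, 10.9, 4.86 and 8.24. With 7 hotspots, the body of SERPINB8 held more of them than that of any other member.

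The SERPINB8 promoter (RefSeq, GRCh38.p14, chr18:63969831-63970130, plus strand) is shown because it overlaps one edge of the hotspot with the highest score. Its capitals mark an AP-1 motif (TGACTCA or its reverse complement TGAGTCA), which starts 28 bases before the TSS. AP-1 is the family of FOS and JUN dimers, which respond to growth factors such as EGF. The stretch held 9 CpG dinucleotides. Within the whole hotspot there were also 3 SP motifs, all outside the part shown.
SERPINB8: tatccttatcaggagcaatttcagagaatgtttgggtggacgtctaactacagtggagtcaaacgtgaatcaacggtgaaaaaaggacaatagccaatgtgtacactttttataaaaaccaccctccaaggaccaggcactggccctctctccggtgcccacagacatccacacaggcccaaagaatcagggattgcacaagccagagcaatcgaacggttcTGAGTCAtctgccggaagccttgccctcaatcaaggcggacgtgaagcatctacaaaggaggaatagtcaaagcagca

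SERPINB2, also called plasminogen activator inhibitor type 2, inhibits the urokinase plasminogen activator. Its main TSS, at 63887705, had no hotspot within 1000 bp. The nearest one lay 2.69 kb into the gene at chr18:63890397-63890677, over the start of a shorter transcript (SERPINB2-204), and its score of 4.48 is the most frequent score of the list, given to 8035 hotspots. Of the hotspots of the list, 9.19% had a score at or below it. The next score after those of the SERPINB8 and SERPINB5 promoters, 21.8, belonged to a hotspot before the main TSS, at chr18:63882655-63883203. Its end lay 4502 bp before that TSS, inside an intron of a longer transcript that starts at 63871692. It was 549 bp wide, and 93.8% of all hotspots scored at or below it. Accessible chromatin near SERPINB2 thus stood mainly upstream of the main start and not over it.

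The SERPINB2 promoter (RefSeq, GRCh38.p14, chr18:63887455-63887754, plus strand) is shown with the first 300 bases of the upstream hotspot (hg38 chr18:63882655-63882954, plus strand), because the one had no hotspot and the other the highest score near the gene. In the promoter, capitals mark the TATA box (TATAAA, searched for on the coding strand between 40 and 15 bases before the TSS), which starts 30 bases before the TSS and was found in 2.30% of the 35116 promoters. No other RefSeq promoter of a member had one. In the upstream hotspot, capitals mark an AP-1 motif. It lies before the central 300 bases of this hotspot (chr18:63882780-63883079), the window used for the motif shares below. That central window held none of the motifs searched.
SERPINB2 promoter: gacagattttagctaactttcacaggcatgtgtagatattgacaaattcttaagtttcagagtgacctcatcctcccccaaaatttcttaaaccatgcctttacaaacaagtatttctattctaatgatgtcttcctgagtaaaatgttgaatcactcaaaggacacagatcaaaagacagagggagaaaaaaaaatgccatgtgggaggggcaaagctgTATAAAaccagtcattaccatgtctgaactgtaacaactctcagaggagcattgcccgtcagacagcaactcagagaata
SERPINB2 upstream hotspot: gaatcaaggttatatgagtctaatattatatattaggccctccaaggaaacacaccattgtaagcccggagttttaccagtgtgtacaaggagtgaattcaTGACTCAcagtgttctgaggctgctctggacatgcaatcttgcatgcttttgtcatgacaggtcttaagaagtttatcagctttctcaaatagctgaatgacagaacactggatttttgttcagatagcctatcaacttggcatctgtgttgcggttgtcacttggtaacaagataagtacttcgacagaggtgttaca

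SERPINB13 (headpin), an inhibitor of the cathepsins L and K, had 2 promoter hotspots. The one at chr18:63586909-63587285 had a score of 10.1 and covered the most upstream annotated start, and its end lay 58 bp before the main TSS at 63587343. The other, at chr18:63586485-63586629, had a score of 4.75. Another hotspot, at chr18:63584942-63585303 with a score of 10.5, lay 1686 bp before the first annotated start. Past the end of the gene, at chr18:63604795-63605510, lay a stronger hotspot, with a score of 18.4, which was 716 bp wide. No TSS of any annotated gene lay within 1000 bp of it. SERPINB13 was thus flanked by accessible sites, and the stronger one was at the far end.

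SERPINB7 (megsin) is named for its expression in the mesangial cells of the kidney and is also made in the epidermis. It had 1 promoter hotspot, with a score of 8.24 at chr18:63775243-63775595, over the main TSS at 63775418. Its earliest annotated starts, at 63752935 and 63753047, and those at 63777777 and 63777977 had none within 1000 bp. Of all hotspots, 73.5% scored at or below it, but of genes with a promoter hotspot only 19.3% did. The introns held 3 further hotspots with scores of 4.93, 7.60 and 5.24.

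The promoters of SERPINB13 (RefSeq, GRCh38.p14, chr18:63587093-63587392, plus strand) and SERPINB7 (chr18:63775168-63775467, plus strand) are shown because both lay at least partly under a hotspot and both held an AP-1 motif, in capitals. It starts 87 bases before the TSS in SERPINB13 and 39 before it in SERPINB7. In all, 4 of the 11 RefSeq promoters of the members held an AP-1 motif, beside 4.95% of the 35116 promoters. They belong to 3 members and are those of SERPINB13 and SERPINB8 and 2 of the 3 of SERPINB7. One of these SERPINB7 promoters, with its TSS at 63777781, had no hotspot within 1000 bp. The 4 promoters were 29.7% to 48.7% G and C, beside a median of 58.7% over the 35116. The share among promoters of like base content was not computed, and the difference was not tested. RefSeq promoters were matched by symbol for 8 members, all but SERPINB10 and SERPINB11.
SERPINB13: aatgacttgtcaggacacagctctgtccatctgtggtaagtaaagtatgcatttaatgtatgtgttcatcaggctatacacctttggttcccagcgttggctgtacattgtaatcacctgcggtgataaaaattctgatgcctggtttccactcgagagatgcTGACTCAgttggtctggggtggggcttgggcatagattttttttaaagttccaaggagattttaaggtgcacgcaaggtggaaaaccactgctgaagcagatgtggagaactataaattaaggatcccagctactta
SERPINB7: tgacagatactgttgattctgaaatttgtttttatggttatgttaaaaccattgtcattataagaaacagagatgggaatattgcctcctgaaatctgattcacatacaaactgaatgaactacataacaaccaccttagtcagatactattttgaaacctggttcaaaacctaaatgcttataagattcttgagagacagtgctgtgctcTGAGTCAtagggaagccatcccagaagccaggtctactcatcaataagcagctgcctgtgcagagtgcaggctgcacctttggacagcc

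SERPINB3 and SERPINB4, the squamous cell carcinoma antigens, lie on the minus strand near each other. An early start of SERPINB11 lies between them. Neither of the pair had a promoter hotspot. SERPINB3 inhibits cysteine proteases such as the cathepsins L, K and S, and SERPINB4 inhibits serine proteases such as cathepsin G and mast cell chymase. They are the most alike of the members. Their coding sequences were 95.2% identical over 1173 bases, while the next pair, SERPINB13 and SERPINB3, reached 67.6% and the 45 pairs had a median of 56.7%. Over the whole genes the identity was 91.1%. Of the window of 1000 bp on either side of the main TSS, 57.5% of the positions started a stretch of 75 bases, the length of a read, that occurs once in the reference, against 100.0% for each of the other 8 members. Whether reads lost or misplaced between the copies have a part in the missing promoter hotspots was not tested.

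The promoters of both genes (RefSeq, GRCh38.p14, minus strand, chr18:63661844-63662143 for SERPINB3 and chr18:63644207-63644506 for SERPINB4) are shown with the bases that differ in capitals, because they are so alike. They differed at 4 of 300 bases. Both held a RUNX motif (TGTGGTT, here on the other strand), which starts 63 bases before the TSS and was found in 4.27% of the 35116 promoters, and neither held an AP-1 motif or a TATA box.
SERPINB3 promoter: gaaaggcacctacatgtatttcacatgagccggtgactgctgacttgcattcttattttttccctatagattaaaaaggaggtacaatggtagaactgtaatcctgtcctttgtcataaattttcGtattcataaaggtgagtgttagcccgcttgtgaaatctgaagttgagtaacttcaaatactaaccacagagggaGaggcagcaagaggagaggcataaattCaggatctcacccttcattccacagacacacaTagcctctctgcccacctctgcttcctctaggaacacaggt
SERPINB4 promoter: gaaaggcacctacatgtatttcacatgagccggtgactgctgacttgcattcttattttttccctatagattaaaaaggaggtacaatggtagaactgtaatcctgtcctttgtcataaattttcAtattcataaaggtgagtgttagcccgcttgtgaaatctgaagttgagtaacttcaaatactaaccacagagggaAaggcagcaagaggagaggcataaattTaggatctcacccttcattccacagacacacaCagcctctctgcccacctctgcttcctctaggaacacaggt

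Each of the pair had 1 hotspot inside the gene, and both lay at the same place. The hotspot in SERPINB4, chr18:63641390-63641684, had a score of 6.71 and was centred 2719 bases after the TSS. The one in SERPINB3, chr18:63659035-63659511, had a score of 7.09 and was centred 2620 bases after the TSS. Aligned to SERPINB3, the SERPINB4 hotspot fell on chr18:63659029-63659323, so that 289 of its bases, or 98.0% of it and 60.6% of the SERPINB3 hotspot, were shared. The sequences are shown on the minus strand with the 9 differing bases of 295 in capitals. Of the positions in the hotspots, 72.9% in SERPINB4 and 71.3% in SERPINB3 were unique at the read length. Whether reads of one copy were placed on the other was not tested. Both copies hold the same AP-1 motif, at base 213, with no difference inside it.
SERPINB3 intron: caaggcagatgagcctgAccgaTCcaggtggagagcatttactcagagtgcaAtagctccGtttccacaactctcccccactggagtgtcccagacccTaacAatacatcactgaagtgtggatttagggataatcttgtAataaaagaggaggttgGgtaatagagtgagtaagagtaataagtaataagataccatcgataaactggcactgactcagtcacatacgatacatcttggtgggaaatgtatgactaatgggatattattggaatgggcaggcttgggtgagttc
SERPINB4 intron: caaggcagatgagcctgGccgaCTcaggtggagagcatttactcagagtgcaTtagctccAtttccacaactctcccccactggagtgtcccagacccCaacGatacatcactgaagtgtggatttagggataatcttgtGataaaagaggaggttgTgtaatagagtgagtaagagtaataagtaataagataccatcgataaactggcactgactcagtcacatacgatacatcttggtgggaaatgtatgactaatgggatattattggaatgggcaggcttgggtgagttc

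SERPINB10 (bomapin), which is known from haematopoietic cells, SERPINB11 (epipin) and SERPINB12 (yukopin), an inhibitor of trypsin-like proteases, had no promoter hotspot and were also the farthest from one. The nearest hotspot to the main TSS lay 17.3 kb away for SERPINB10, 19.4 kb for SERPINB11 and 10.7 kb for SERPINB12, against 2.57 kb for SERPINB4 and 2.38 kb for SERPINB3. All positions in the TSS windows of these 3 genes were unique at the read length. The body of SERPINB10 held no hotspot. SERPINB12 held 1, with a score of 12.1 (chr18:63553038-63553519), and the body of SERPINB11 held 2, one of which is the hotspot in SERPINB3, since an early start of SERPINB11 makes the genes overlap. The other, at chr18:63683218-63683547, had a score of 10.5. Right behind SERPINB10, 5 bp past its end, lay a hotspot with a score of 15.8, at chr18:63936116-63936512.

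**Figure D2:**
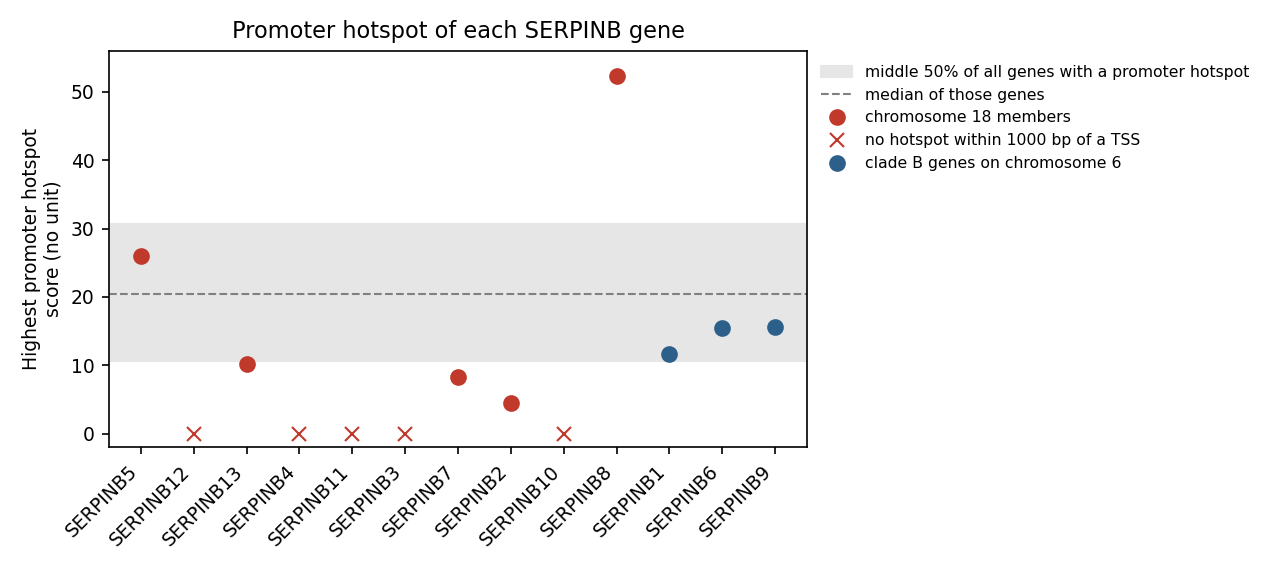
Highest score (vertical axis, no unit) of a hotspot within 1000 bp of any TSS, for the 10 members in red in the order of the chromosome and for the clade B genes of chromosome 6 in blue; a cross marks a gene with no such hotspot. SERPINB8 at 52.2 stands above the grey band of the middle 50% of genes with a promoter hotspot, SERPINB5 at 25.9 lies inside it, and SERPINB13, SERPINB7 and SERPINB2 at 10.1, 8.24 and 4.48 lie below it.

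Promoters rich in CpG are accessible in most cell types, so the members were set beside genes of the same CpG class. Genes were divided into 5 equal classes by the ratio of observed to expected CpG within 500 bp of the main TSS. Of the members, 8 were in the lowest class and 2, SERPINB5 with a ratio of 0.513 and SERPINB8 with 0.659, in the class above it. In the lowest class 3 of 8 members had a promoter hotspot, beside 43.2% of the 4007 genes of the class. In the second class both members had one, beside 67.1% of all its genes. The share of genes rose to 89.4%, 93.0% and 93.2% in the higher classes, which held no member. Within its own class, SERPINB8 scored at or above 98.9% and SERPINB5 at or above 77.8% of the genes with a promoter hotspot. In the lowest class, where these genes had a median score of 7.12, SERPINB13 scored at or above 66.0%, SERPINB7 at or above 57.8% and SERPINB2 at or above 4.67% of them. The members of the lowest class lay a median of 2.63 kb from the nearest hotspot. All genes of that class lay a median of 3.84 kb from one, with quartiles of 0.718 and 10.8 kb. Of these genes, 15.4% lay farther than SERPINB10, 13.2% farther than SERPINB11 and 25.4% farther than SERPINB12. For the other members of the class this share was 57.4% or more. With any TSS counted, the share of members with a promoter hotspot in the lowest class was thus near that of genes with like promoters. This share includes SERPINB2, whose hotspot was not at the main TSS by which the class was set. At the main TSS 2 of the 8 members had one, and the share of the class was not computed. The whole cluster was below the share of all genes.

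**Figure D3:**
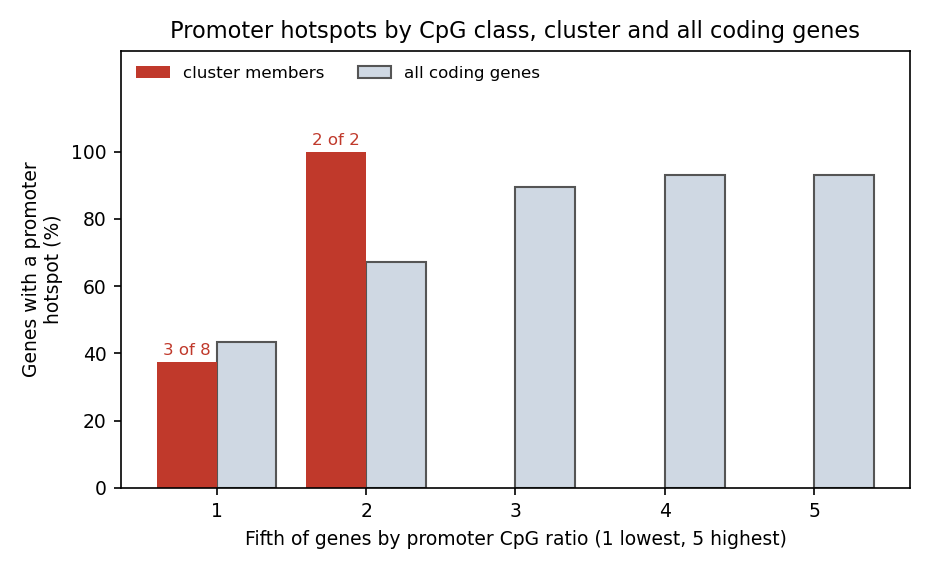
Share of genes with a promoter hotspot (vertical axis, %) in each of 5 equal classes of protein-coding genes by promoter CpG ratio (horizontal axis, lowest to highest), with the cluster members in red and all genes in grey. The members are 3 of 8 in the lowest class beside 43.2%, and 2 of 2 in the second beside 67.1%.

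Other serpin genes were set beside the cluster, with no test of the difference. The clade B genes of chromosome 6, SERPINB1, SERPINB6 and SERPINB9, which inhibit leukocyte serine proteases among others, had a promoter hotspot in 3 of 3 cases, with scores of 11.6, 15.4 and 15.5. All of these lay below SERPINB5 and SERPINB8 and above the other members. SERPINB1, SERPINB9 and SERPINB6 were in CpG classes 2, 3 and 5, where 67.1%, 89.4% and 93.2% of all genes had a promoter hotspot. Of the 9 genes of the SERPINA cluster on chromosome 14, which codes for secreted inhibitors such as the liver-made alpha-1-antitrypsin SERPINA1, 4 had a promoter hotspot (SERPINA1, SERPINA3, SERPINA5 and SERPINA12), with scores of 4.86 to 6.60. All 9 SERPINA genes were in the lowest CpG class, where 43.2% of all genes had a promoter hotspot. No hotspot of the SERPINA interval scored above 14.1. The maximum was 52.2 in the SERPINB cluster and 15.5 on chromosome 6. Inside the SERPINB interval, HMSD, which overlaps the start of SERPINB8, and the unnamed coding gene ENSG00000289724 had no promoter hotspot. The nearest genes before the cluster, VPS4B, KDSR and BCL2, had promoter scores of 43.2, 28.5 and 12.8. After it the next coding genes, CDH7, CDH19 and DSEL, lie 1730 kb or more away, and only DSEL had one, with a score of 37.6.

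Of the 38 hotspots, 7 lay within 1000 bp of a member TSS and 31 elsewhere. By their midpoint, 20 lay in introns, 15 between genes and 3 in exons. Their median width was 275 bp (29 to 1346 bp) and their median score 6.999 (4.48 to 52.2), beside 287 bp and 5.81 over all hotspots. More of them were above the median of the list, 24 of 38 or 63.2%. At or above a score of 16.1, which took in 10.1% of all hotspots, were 4 of the 38, and these were the hotspots of SERPINB8, SERPINB5, the SERPINB2 upstream region and the end of SERPINB13. The 7 hotspots at member promoters had a median score of 8.24, beside 9.37 for all hotspots within 1000 bp of a TSS of a coding gene, and the 31 others had a median of 6.74, beside 5.62 for all hotspots elsewhere.

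The interval held 70.0 hotspots per Mb, against 48.6 on chromosome 18 and 61.9 over the known bases of the genome, and hotspots covered 2.18% of it, against 1.65% and 2.31%. By midpoint, 37 hotspots lay in the interval, since the middle of the SERPINB5 hotspot is just outside. Tiles of the same length over the autosomes and X held a median of 29 hotspots (quartiles 17 and 47, 5300 tiles), and 36.2% of them held more than the cluster. On chromosome 18 the median was 21 over 147 tiles. The SERPINB genes of chromosome 6 had 122 hotspots per Mb and the SERPINA cluster 90.2. The cluster thus lay above the middle of the tiles in number of hotspots, but below both other serpin intervals.

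**Figure D4:**
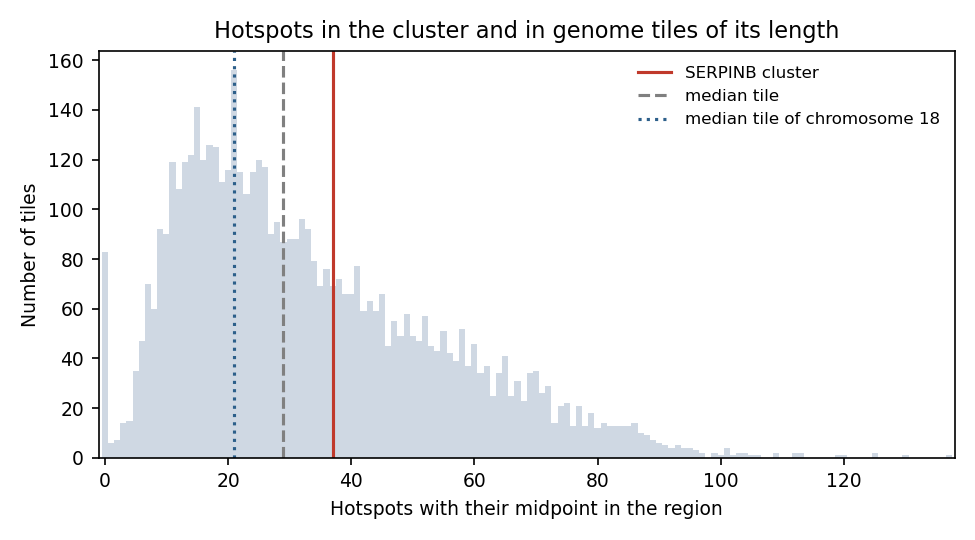
Number of genome tiles (vertical axis) by the number of hotspots with their midpoint inside (horizontal axis), for 5300 tiles as long as the cluster. The red line marks the cluster at 37 hotspots, the dashed line the median tile at 29 and the dotted line the median tile of chromosome 18 at 21.

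Within the cluster the hotspots were unevenly spaced. The longest stretch without one ran 47.2 kb from chr18:63683548 to 63730796 and held the main TSS of SERPINB11. The next, of 45.4 kb, held the TSS and the whole of SERPINB10, and the one after, of 40.05 kb, the TSS of SERPINB12. The median gap was 10.1 kb over 37 gaps. The part from SERPINB4 to SERPINB7 held 53.5 hotspots per Mb with a highest score of 10.5. The part from SERPINB5 to SERPINB13 held 86.2 per Mb and that from SERPINB2 to SERPINB8 held 74.3, and their highest scores were 25.9 and 52.2. The accessible sites were densest before the cluster, where the last 100 kb held 15 hotspots, and sparse after it, where the next 100 kb held 4 with a highest score of 5.61. The stretch before the cluster also holds the gene VPS4B, whose promoter hotspot had the highest score of that stretch, 43.2.

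Of the motifs searched, AP-1 was found at the most sites of the cluster. Windows of 300 bp centred on each hotspot were read on both strands, and they run past the edges of the 22 cluster hotspots narrower than that. Of the 38 windows, 8 (21.1%) held it, beside 11.1% of the windows of all hotspots. In 2 of the 8 the motif lay in the flank, outside the hotspot. Within the hotspot's own bases the count was 6 of 38 (15.8%), beside 10.2% of all. Of the hotspots within 1000 bp of a TSS of a coding gene, 1 of 7 in the cluster and 6.49% in the list held the motif in this inner part. Elsewhere the counts were 5 of 31 (16.1%) and 10.8%. Taken over their whole width, 10 of 38 hotspots held an AP-1 motif, beside 12.6% of all, and the flank matches are not among them. These 10 were the hotspots of the SERPINB8, SERPINB7 and SERPINB13 promoters, the one before SERPINB13, the paired hotspots in SERPINB3 and SERPINB4, the SERPINB2 upstream hotspot, and single ones in an intron of SERPINB7, between SERPINB7 and SERPINB2, and in an intron of SERPINB8. The maspin hotspot held no exact match to the AP-1 motif.

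The other motifs were in 0 to 3 of the 38 windows. TEAD (ACATTCC), ETS (AGGAAGT) and SP (CCCGCCC) were in 3 each (7.89%), beside 4.46%, 6.79% and 7.80% of the windows of all hotspots. RUNX (TGTGGTT) and KLF (GGGTGTGG) were in 2 each (5.26%), beside 5.73% and 4.50%. GRHL (AACCNGTT) and the p53 family half-site were in 1 each (2.63%), beside 1.70% and 2.29%, and the GRHL match lay in a flank. No window held the cAMP response element (TGACGTCA), STAT (TTCCNGGAA), NF-kB, glucocorticoid receptor or CTCF motif, each of which was in 0.312% to 1.30% of all windows. Since 1 hotspot is 2.63% of the cluster, a difference of 1 hotspot moves these shares by that much, and none was tested. A match says that the letters are there and not that a factor is bound. Only exact letters were counted, so the lack of a match does not exclude a variant of the motif.

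**Figure D5:**
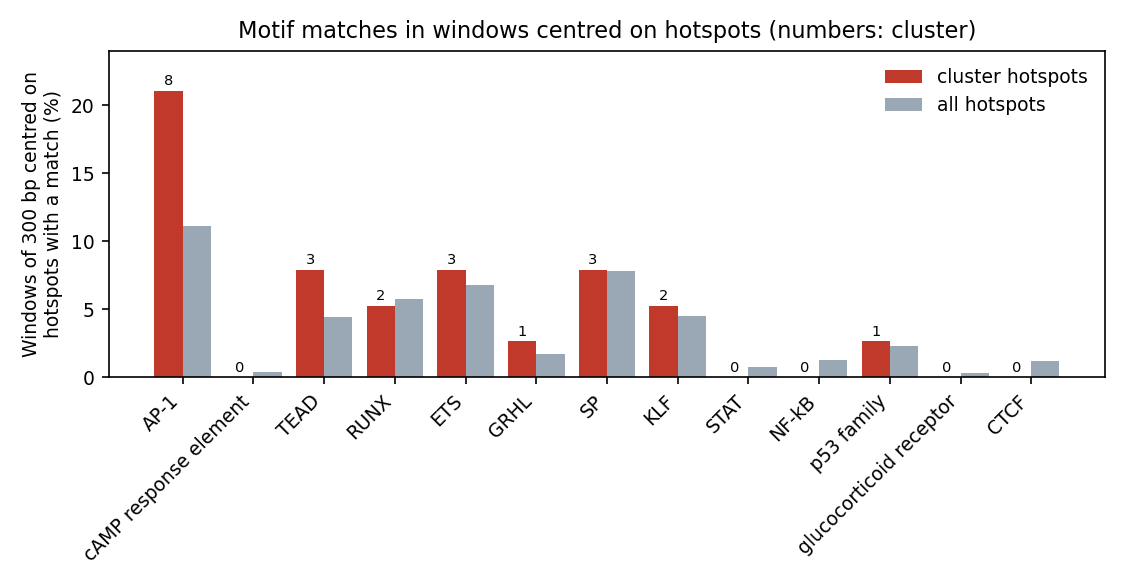
Share of 300 bp windows, centred on hotspots and including flanks of narrow ones, with a motif match on either strand (vertical axis, %), for the 38 cluster hotspots in red, with the number of windows above each bar, and all 181723 hotspots in grey. AP-1 is in 8 cluster windows, or 21.1%, beside 11.1%, and in 6 of them inside the hotspot, and each other motif is in 3 or fewer.

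The hotspots behind SERPINB13 and SERPINB10 are shown as the strongest sites of the cluster that are near no annotated start of a coding gene and do not lie inside a member (hg38, central 300 bases, plus strand, chr18:63605003-63605302 and chr18:63936165-63936464). The first holds a RUNX motif and a p53 family half-site, in capitals in that order. The second is rich in G and C, 59.2% over the hotspot against a median of 49.6% for the 38, and its capitals mark an SP and a RUNX motif.
Behind SERPINB13: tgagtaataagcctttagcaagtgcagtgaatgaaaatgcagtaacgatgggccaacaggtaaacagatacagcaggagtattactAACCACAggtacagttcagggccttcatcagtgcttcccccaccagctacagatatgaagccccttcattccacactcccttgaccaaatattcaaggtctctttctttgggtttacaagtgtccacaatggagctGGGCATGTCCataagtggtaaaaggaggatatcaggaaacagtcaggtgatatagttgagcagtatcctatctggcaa
Behind SERPINB10: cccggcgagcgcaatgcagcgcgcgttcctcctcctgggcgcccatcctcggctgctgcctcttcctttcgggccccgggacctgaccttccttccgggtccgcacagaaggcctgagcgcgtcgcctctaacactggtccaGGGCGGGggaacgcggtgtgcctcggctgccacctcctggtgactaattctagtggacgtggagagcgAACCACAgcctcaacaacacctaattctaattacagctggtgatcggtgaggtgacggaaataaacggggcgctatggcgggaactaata

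The scores have a limited resolution and some rest on repeated sequence. Of the 38 scores, 25 lay on a ladder of equal steps of 0.376 that starts at 4.48 (tolerance 0.01 of a step). This is a larger share than in the whole list, where 31.4% of scores lay on it. What a step counts is not stated. Neighbouring scores such as 4.48 and 4.86 are 1 step apart. The shares at or below a score still order them, and whether so small a difference has meaning was not tested. In 33 of the 38 hotspots every position was unique at the read length. In 3 fewer than 50% were. The one with a score of 12.8 at chr18:63866251-63866310, was 60 bp wide, none of its positions was unique, and they occurred a median of 19 times in the reference. The hotspots with scores of 7.60 in SERPINB7 and 5.56 in SERPINB8 had 24.9% and 23.8% of unique positions. None of these 3 was a promoter hotspot, and the part of repeated sequence in their scores was not tested.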

How the data were processed

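ATAC-seq reads of 75 bases, in pairs, from 5 MCF10A replicate libraries were mapped to hg38 with Bowtie2 by the authors (their supplement names a version only where it aligns other data to hg19). The replicates were pooled and duplicate reads dropped before Hotspot, which finds local read enrichment, was run with its false discovery rate set to 0.01. The supplement drops mitochondrial reads before drawing the coverage track. For the Hotspot run it describes neither such a filter nor a Tn5 shift. The deposited list gives each hotspot a score, used here as given, whose formula is not stated. Pooling leaves no replicate values, so no test, interval or comparison of replicates was possible, and the depth is unknown.

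All hotspots lay within the hg38 chromosomes and none overlapped. Promoter hotspots overlap 1000 bp on either side of any TSS of a coding gene (GENCODE release 44). Motif matches were exact, on both strands, in the central 300 bp. CpG ratios used 500 bp on either side of the main (Ensembl canonical) TSS. Unique positions start a stretch of 75 bases that occurs once in the reference. Protein sequences were not used here, so coding sequences of the main transcripts were aligned in place of the planned protein alignment. Promoter calling, motif search and the uniqueness count were tested on simulated data.

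The members and lists were chosen with earlier results of these data known. Named were all members, coding genes inside the interval, the 3 nearest on each side, the other clade B genes, the SERPINA genes, all promoter hotspots, the 10 highest scores and the longest gap. Other hotspots in or beside members were chosen after their values were seen. Software was Python 3.11.15 with numpy 2.4.6, pandas 2.3.3, numba 0.67.0, biopython 1.88 and edlib 1.3.9.post1.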

Additional observations from a re-analysis of the deposited data

How the results depend on the processing

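The count of 5 members with a promoter hotspot was 5 with a TSS window of 500 bp (74.0% of all genes). It was also 5 with hotspot midpoints (76.2%), with protein-coding transcripts only (73.6%) and with hotspots mostly of unique sequence (share not computed). It was 7 with a window of 2500 bp (82.4% of all genes), which added SERPINB3 (score 7.09) and SERPINB4 (6.71). It was 4 with the main TSS only (70.3%) or with hotspots above the median score (69.2%), both of which lost SERPINB2. Counting only hotspots above the median score left 24 of 38 hotspots in the interval and 44.2 instead of 70.0 per Mb, by construction. Other intervals kept counts, density, coverage and medians within 1.5 times where each was computed, and the TSS windows and the main TSS did so for the promoter scores they gave. An interval without SERPINB8 held 31 hotspots, or 63.0 per Mb. In windows of 120 bp, 10.5% of the cluster hotspots held AP-1, beside 5.82% of all, and none RUNX, GRHL or the p53 family half-site, beside 2.22%, 0.701% and 0.945%. Inside hotspots none held GRHL, over their whole width or in the central 300 bp, and 15.8% held AP-1 in the central part. The alternatives on coding transcripts, unique sequence, the inner part of the motif windows and the interval without SERPINB8 were chosen after seeing the data. Those that leave out repeats were not run, since the reference used here does not mark them. No paired analysis was possible because the replicates were pooled before the calls, and for the same reason none could be left out. The scores give rank in 1 pooled list and no depth or error.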
